A study of Mus musculus with 47 samples.

Results

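Cerebellar granule cell genes were examined in the brains of 3xTg mice. The 10 genes were taken as a list of markers, namely Gabra6, Cbln1, Cbln3, Zic1, Zic2, Zic4, Neurod1, Grm4, Cdh15 and Gng13. All 10 were found among the 55416 genes of both count tables, and all 10 had enough counts for testing in each sex. Mice received a Control diet of defined amino acids, or a diet poor in isoleucine (IleR), leucine (LeuR) or valine (ValR), at 6 months of age, and brain RNA was sequenced after 9 months of feeding. Every animal, Control-fed ones included, carried the 3xTg genotype, in which mutant human amyloid precursor protein and tau transgenes are combined with a mutant presenilin 1, so no library of a mouse without these alleles is part of the comparisons. In this line the transgenes are driven by a Thy1 promoter and so act in neurons. Of 24 labelled male libraries, the 14 with a column in the male count table used here were analysed (4 Control, 3 IleR, 3 LeuR and 4 ValR), and the other 10 are not analysed here. Per the study's methods outlying samples were removed, and whether these 10 are among them is not given in the sources used here. Among females, Control, LeuR and ValR had 6 libraries each and IleR had 5, which made 23. Libraries are called by diet and label number, such as Control 4, and each was treated as a separate animal.

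The tissue was labelled as brain, although the extraction text of the labels names liver, and the methods name the left hemisphere whereas the results name whole brain. Snap25, a synaptic protein of neurons, lay between 797 and 1984 CPM (read count as a share of the TMM-scaled library size, the unit of all levels here) in males and between 1031 and 2084 in females. Alb, the serum albumin made by liver, was at no more than 1.23 CPM in males and 7.33 in females. Total counts per library ran from 12682687 to 25722333 in males and from 10672599 to 21370973 in females, and libraries of a group differed by more than counting error in each of 73 pairs. Xist and the Y-linked genes matched the labelled sex in every library.

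Granule cells are the small, densely packed glutamatergic neurons of the cerebellar cortex, and they are the most numerous neurons of the mouse brain. Their axons, the parallel fibres, contact the dendrites of Purkinje cells, and cerebellin secreted by granule cells holds these synapses together. The GABA-A receptor subunit encoded by Gabra6 is largely restricted to these cells in adult brain, and its transcription in granule neurons is known to depend on nuclear factor I (NFI) proteins. The Zic genes encode zinc finger transcription factors of the cerebellum and of midline tissues, and Neurod1 encodes a basic helix-loop-helix factor needed for granule neurons to form and survive.

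All 10 genes are protein coding. In the GENCODE M21 annotation of GRCm38, Gabra6 lies at chr11:42306437-42321072, Cbln1 at chr8:87468405-87472609, Cbln3 at chr14:55878913-55884392 and Zic1 at chr9:91358058-91365810, all on the minus strand. Zic2 lies on the plus strand at chr14:122475435-122479852, Cdh15 at chr8:122847966-122867397 and Gng13 at chr17:25717171-25719406. Neurod1 lies on the minus strand at chr2:79452521-79456751, as does Grm4 at chr17:27422387-27521403. Zic4 lies on the plus strand at chr9:91362413-91389348 and overlaps Zic1 head to head over 3398 bases, of which 60 are exonic in both. Gng13 shares 399 of its 773 exon bases with Chtf18 on the other strand, and Neurod1 shares 201 of its 2729 with Cerkl on the same strand. The strand setting of the counting is not given in the sources used here, so reads in these shared stretches could have been counted for either gene.

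Promoter sequences of granule cell genes are shown because the genes moved together across libraries and because the NFI element is the known element of Gabra6. RefSeq windows (GRCm38.p6, 250 bases before to 50 bases after a transcript start) were found for 7 of the 10 genes, in 8 windows, since Gng13 has a pair of starts. Of the 3 windows printed, the capitals mark each match to the letters TTGGC on either strand, which read GCCAA where the match is on the other strand.
Gabra6, chr11:42321023-42321322, minus strand: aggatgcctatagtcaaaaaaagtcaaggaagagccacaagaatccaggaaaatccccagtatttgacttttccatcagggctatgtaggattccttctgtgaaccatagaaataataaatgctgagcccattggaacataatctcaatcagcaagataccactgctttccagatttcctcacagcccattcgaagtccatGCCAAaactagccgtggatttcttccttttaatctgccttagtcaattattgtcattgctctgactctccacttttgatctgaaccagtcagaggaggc
Cbln3, chr14:55884207-55884506, minus strand: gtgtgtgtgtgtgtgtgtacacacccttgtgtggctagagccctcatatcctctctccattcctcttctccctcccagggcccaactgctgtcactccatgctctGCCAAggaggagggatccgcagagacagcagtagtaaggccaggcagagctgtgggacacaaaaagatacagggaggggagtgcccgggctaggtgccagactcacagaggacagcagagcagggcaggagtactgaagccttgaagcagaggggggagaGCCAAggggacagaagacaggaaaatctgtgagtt
Cdh15, chr8:122848124-122848423, plus strand: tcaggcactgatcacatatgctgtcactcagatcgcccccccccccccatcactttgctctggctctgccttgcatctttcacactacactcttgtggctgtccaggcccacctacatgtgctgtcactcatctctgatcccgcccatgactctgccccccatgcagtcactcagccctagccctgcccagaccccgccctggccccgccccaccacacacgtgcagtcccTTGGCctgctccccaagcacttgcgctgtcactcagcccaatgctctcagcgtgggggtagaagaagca
The match in the Gabra6 window starts at −49 relative to the transcript start, those in the Cbln3 window at −145 and 16, and that in the Cdh15 window at −19. The element was found in 5 of the 8 windows, beside 46.7% of 32851 RefSeq windows of the same length, so a match is common in any promoter. The E-box letters CAGATG and CAGCTG and the letters TATAAA were found in 0 of the 8 windows on either strand, beside 17.2%, 16.3% and 13.6% of all windows. These matches describe the letters alone.

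Gabra6 was close to absent from the libraries of Control-fed males and was counted in all but 1 of the 10 libraries of restricted males. Control 1 and Control 3 had 0 CPM, Control 4 had 0.0637 CPM and Control 5 had 0.0559 CPM, where 1 count was the most in any of them. On the IleR diet the level was 99.6 CPM in IleR 13, 175 in IleR 14 and 298 in IleR 17. On the ValR diet it was 231 CPM in ValR 7, 117 in ValR 9, 435 in ValR 10 and 387 in ValR 12, so that neither group overlapped with Control. The LeuR libraries were split, with 31.5 CPM in LeuR 19, 111 in LeuR 20 and 0 in LeuR 21. LeuR 21 thus stood with the Control libraries, and the LeuR calls are given with and without it below.

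A fold change against a group at 0 or 1 count can only be bounded, so the Control level was set to 3 counts in each library, a mean of 0.185 CPM. The mean level of Gabra6 was then at least 1579-fold higher on the ValR diet, at least 1031-fold higher on the IleR diet and at least 256-fold higher on the LeuR diet, and these bounds cover counting error only. The LeuR bound rested on few libraries, and was 85.0-fold without LeuR 20 and 384-fold without LeuR 21. Gabra6 was a differentially expressed gene (DEG, adjusted p under 0.05 in the quasi-likelihood test of edgeR over all genes) in males on each of the restricted diets, with adjusted p of 0.0013 on the IleR, 0.00723 on the LeuR and 0.000296 on the ValR diet. It entered the test only through the IleR and ValR groups, where every library had counts, since Control 1, Control 3 and LeuR 21 were at 0, so these calls add no support to the values above. In bulk tissue, fewer granule cells in a sample and less RNA of these genes per cell cannot be told apart. Markers of other brain regions also differed between these libraries, as given below, and in males a different share of brain regions in the tissue sequenced and the diet cannot be told apart.

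**Figure D1:**
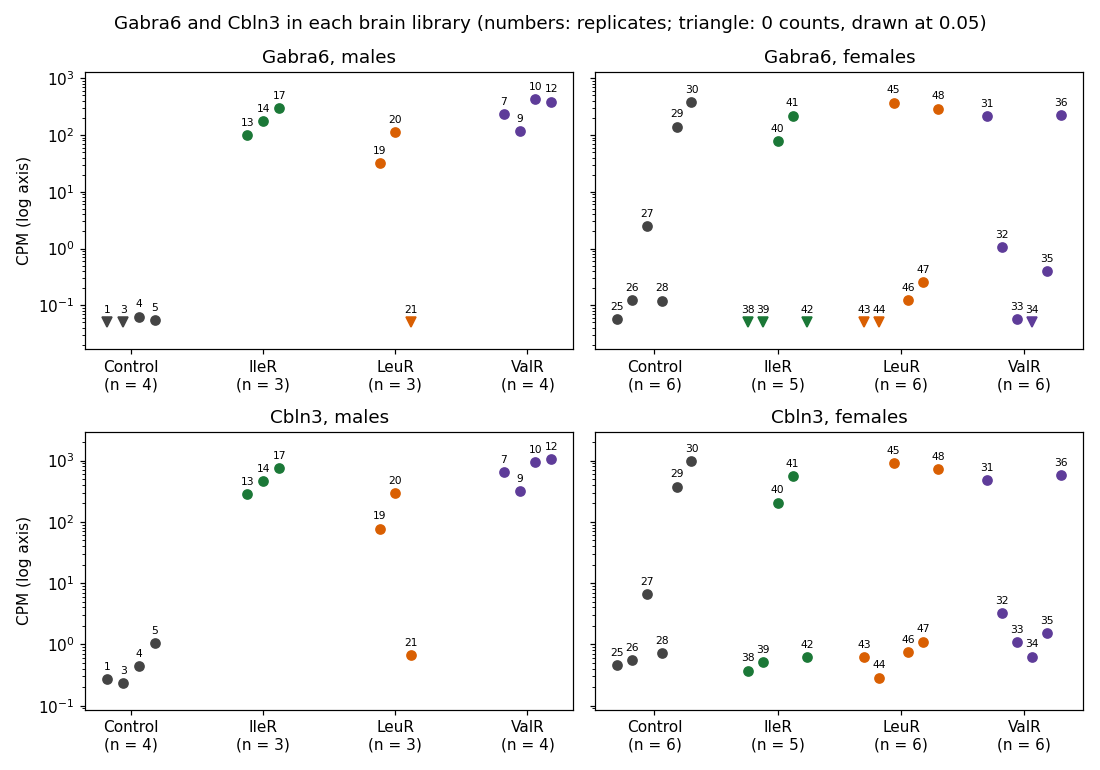
Level of Gabra6 (upper row) and Cbln3 (lower row) in CPM on a log axis in each male (left) and female (right) library, by diet, with the replicate number above each point and triangles at 0.05 for 0 counts. Male Control libraries lie at or below 1.06 CPM for both genes and male IleR and ValR libraries at or above 99.6 CPM, whereas each female group holds libraries at both levels.

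Cbln3, a cerebellin that is secreted only in complex with Cbln1, followed Gabra6. It was at 0.272 CPM in Control 1, 0.237 in Control 3, 0.446 in Control 4 and 1.06 in Control 5. In the restricted males it was at 285, 464 and 766 CPM in IleR 13, 14 and 17, at 653, 322, 947 and 1062 CPM in ValR 7, 9, 10 and 12, and at 77.5 and 297 CPM in LeuR 19 and 20. LeuR 21, at 0.677 CPM, lay within the Control range. The log2 fold change against Control was 9.91 ± 1.41 (standard error, SE) with IleR, 7.89 ± 1.35 with LeuR and 10.47 ± 1.42 with ValR, with edgeR adjusted p of 0.00118, 0.00618 and 0.000277.

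Cbln1, the main cerebellin of parallel fibre synapses, differed from Cbln3 in that LeuR 21 also lay high. Control males had between 3.8 and 23.4 CPM, whereas IleR-fed males had 209, 326 and 528 CPM and ValR-fed males had 389, 236, 615 and 641 CPM. LeuR 19, 20 and 21 had 91.95, 243 and 102 CPM, all above every Control library. The log2 fold change was 5.17 ± 0.64 (SE) with IleR, 3.89 ± 0.62 with LeuR and 5.58 ± 0.64 with ValR (edgeR adjusted p of 0.000853, 0.00452 and 0.000132).

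The Zic transcription factors were measurable in every male library and were higher in each restricted group. Zic1 lay between 17.8 and 43.9 CPM in Control-fed males, at 291, 438 and 687 CPM in IleR-fed males, at 121, 354 and 115 CPM in LeuR-fed males and at 536, 333, 747 and 766 CPM in ValR-fed males. Zic2 ranged from 7.01 to 15.98 CPM in Control, from 76.3 to 181 in IleR, from 28 to 77.2 in LeuR and from 87.3 to 212 in ValR. Zic4, the least abundant of the Zic genes here, ranged from 1.97 to 7.96 CPM in Control and from 11.5 to 40.3 CPM over the restricted males. None of these ranges overlapped with Control on any restricted diet. The log2 fold changes of Zic1 were 3.91 ± 0.49 (SE), 2.64 ± 0.47 and 4.24 ± 0.48 for IleR, LeuR and ValR, those of Zic2 were 3.32, 1.85 and 3.71, and those of Zic4 were 2.67, 1.78 and 2.84, with SE between 0.42 and 0.44 for the latter genes. Each of these 9 differences had an edgeR adjusted p of 0.023 or less. On the LeuR diet that of Zic2 was 0.0622 without Control 1, 0.0652 without Control 3 and 0.0868 without LeuR 20, and that of Zic4 was 0.066 without Control 1, 0.0715 without Control 3, 0.0566 without LeuR 19 and 0.0786 without LeuR 20.

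Neurod1 and Grm4, which encodes a presynaptic metabotropic glutamate receptor of parallel fibres, rose on the IleR and ValR diets and did not pass the test on the LeuR diet. Neurod1 lay between 9.68 and 15.4 CPM in Control males, at 96.2, 152 and 268 CPM in IleR-fed males and at 208, 109, 348 and 312 CPM in ValR-fed males. In LeuR-fed males it was at 31.2, 106 and 4.46 CPM, so that LeuR 21 lay below every Control library. Grm4 lay between 36.6 and 51.8 CPM in Control males and reached 150 to 394 CPM on the IleR diet, 126 to 396 CPM on the ValR diet and 70.6, 173 and 43.7 CPM in LeuR 19, 20 and 21. The log2 fold changes of Neurod1 were 3.79 ± 0.73 (SE) with IleR, 1.92 ± 0.70 with LeuR and 4.30 ± 0.73 with ValR, and those of Grm4 were 2.52 ± 0.46, 1.11 ± 0.45 and 2.72 ± 0.45. The edgeR adjusted p for LeuR was 0.0976 for Neurod1 and 0.136 for Grm4.

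Cdh15, which encodes M-cadherin, an adhesion protein of granule cells and of muscle, and Gng13, which encodes a G protein gamma subunit, also rose on the IleR and ValR diets. Cdh15 lay between 0.71 and 1.7 CPM in Control, between 12.8 and 28.7 in IleR, between 14.4 and 42.4 in ValR, and at 4.21, 13.4 and 3.1 CPM in LeuR 19, 20 and 21. Its log2 fold changes were 4.16 ± 0.55 (SE), 2.58 ± 0.55 and 4.8 ± 0.54 for IleR, LeuR and ValR, with edgeR adjusted p of 0.000975, 0.0136 and 0.000122, and for Cdh15 on the LeuR diet it was 0.05002 without Control 3. Over all 14 male libraries, the highest levels of the 5 muscle genes were 0.0592 CPM for Myod1, 0.226 for Ckm, 0.888 for Myh4, 7.22 for Acta1 and 15.0 for Pax7, and the summed level was 6.2 to 19.2 CPM in Control, 4.72 to 11.0 in IleR, 3.09 to 3.61 in LeuR and 0.944 to 1.4 in ValR. Gng13 lay between 6.48 and 10.8 CPM in Control, between 17.9 and 43.4 in IleR and between 26.6 and 65.6 in ValR. Its LeuR levels of 9.49, 22.9 and 4.18 CPM overlapped with Control, and the log2 fold change of 0.55 ± 0.48 (SE) had an edgeR adjusted p of 0.496. For Gng13 on the IleR diet, the log2 fold change of 1.85 ± 0.47 had an edgeR adjusted p of 0.0183, which became 0.0506 without Control 5 and 0.0956 without IleR 17.

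Over the list, all 10 genes were upregulated DEGs in IleR-fed males, beside 6.63% of all 22197 genes tested, and all 10 in ValR-fed males, beside 11.1%. In LeuR-fed males 7 of 10 were upregulated DEGs, beside 3.81%, and the other 3 (Neurod1, Grm4 and Gng13) had positive log2 fold changes. No gene of the list was a downregulated DEG in any of these comparisons. Gabra6, which entered the test only through the IleR and ValR groups, is counted in the totals of this paragraph and adds no support to them. Without it, every other gene of the list was still an upregulated DEG on the IleR and ValR diets. On the LeuR diet Cbln1, Cbln3, Cdh15, Zic1, Zic2 and Zic4 were. Of all DEGs 43.3%, 37.6% and 47.4% were higher on the IleR, LeuR and ValR diets, and 62.5%, 53.2% and 59.5% when libraries were scaled by their totals alone, where 10, 7 and 10 of the granule cell genes were still upregulated DEGs. The median log2 fold change of the 10 genes was 3.85 with IleR, 2.25 with LeuR and 4.27 with ValR, whereas the median over all genes tested was 0.04, 0.05 and 0.03. Every restricted library lay above every Control library for 10 of 10 genes in IleR (14.8% of all genes), 5 of 10 in LeuR (8.21%) and 10 of 10 in ValR (12.7%). Without LeuR 21, 9 genes were DEGs on the LeuR diet and Gng13 alone was not (edgeR adjusted p 0.15), and the share of all genes called in that fit is not given here.

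With the mean log2 CPM of 9 forebrain genes of each library as a covariate, the fit called 0 of all genes on any restricted diet in males. In it 0 of 10 granule cell genes were therefore DEGs, while the log2 fold changes stayed positive for all 10 genes, from 2.01 to 12.96 with IleR, from 0.86 to 10.71 with LeuR and from 2.07 to 13.68 with ValR. The highest value of each range is the fit of Gabra6, which depends on the prior count and is no bound. In that edgeR fit the adjusted p-values were at least 0.979, and 8, 6 and 9 of the genes had an unadjusted p under 0.05. In males the forebrain level and the diet cannot be told apart by this fit, since the forebrain genes were lower in every restricted library than in every Control library, as given below. For LeuR, 0 genes were DEGs when only the LeuR and Control libraries were fitted, against 7 with all groups, and 4 were DEGs without Control 3. With limma voom 8 of the 10 genes were DEGs on the IleR and ValR diets and 4 on the LeuR diet, all with positive log2 fold changes, and Gabra6 and Cbln3 were not among the DEGs of that fit on any diet. The share of all genes called is not given here for limma voom or for the LeuR fits with fewer libraries.

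**Figure D2:**
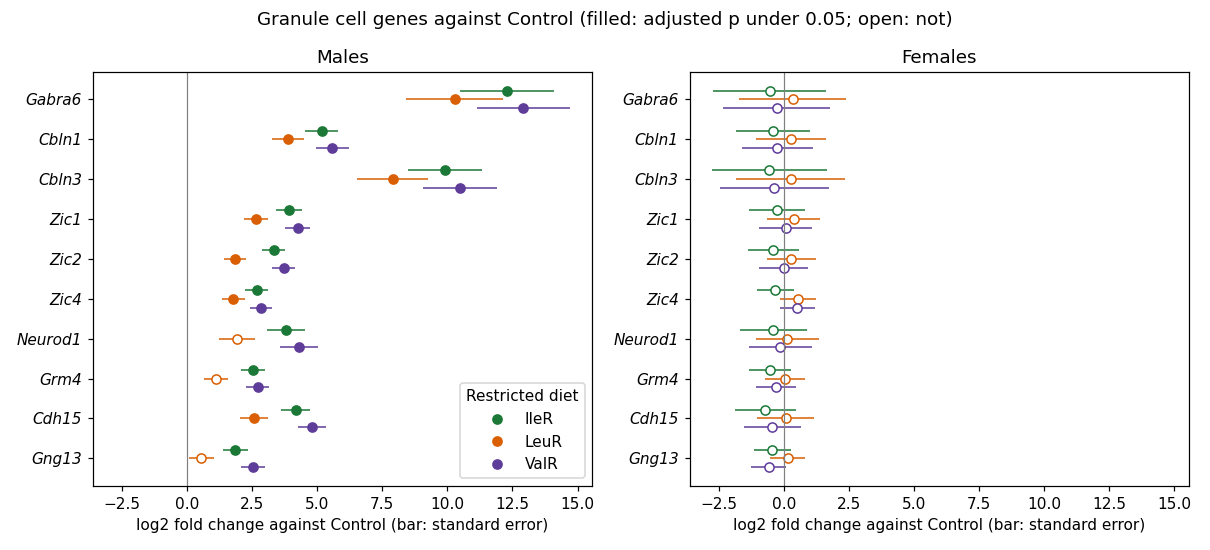
Log2 fold change of each granule cell gene against Control by edgeR in males (left) and females (right), with bars for the standard error, filled points for an adjusted p under 0.05 and open points for the rest. All 10 genes are filled for IleR and ValR and 7 for LeuR in males, and none is filled in females, where the values lie between −0.72 and 0.54, while the male values of Gabra6 are fits against 0 or 1 count and no bounds.

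Between the restricted diets, the 10 genes were ordered ValR, IleR and LeuR from high to low in the fit, and neither neighbouring pair in this order passed the test for any of them. ValR and IleR differed by log2 fold changes of 0.17 to 0.69 (SE 0.41 to 0.95), with 0 DEGs among the granule cell genes and 0% of all genes (edgeR adjusted p of 1 for each gene), and 0 genes had an unadjusted p under 0.05. IleR lay above LeuR by 0.90 to 2.02 (SE 0.45 to 1.05), with 0 DEGs and 0% of all genes, although 6 of the 10 had an unadjusted p under 0.05. DESeq2 and limma voom also gave 0 DEGs among the 10 genes for both of these comparisons. ValR lay above LeuR by 1.07 to 2.64 (SE 0.43 to 1.04), and 2 genes were DEGs. Of all genes, 1.73% were higher and 1.03% were lower on the ValR diet. The 2 genes were Cdh15 with 2.22 ± 0.51 (SE, edgeR adjusted p 0.0484) and Zic2 with 1.86 ± 0.45 (edgeR adjusted p 0.0491). Both were near the threshold. Leaving out any of Control 1, Control 3, Control 5, IleR 14, LeuR 19, LeuR 21, ValR 7, ValR 10 or ValR 12 left 0 of them, leaving out IleR 13 left 1, leaving out Control 4 or IleR 17 gave 3, and leaving out LeuR 20 or ValR 9 gave 6. The share of all genes called in each of these fits is not given here. The 3 comparisons with Control share the same 4 Control libraries.

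In females the granule cell genes varied widely within each diet group. Gabra6 was at 140 and 381 CPM in Control 29 and 30, at 78.2 and 220 CPM in IleR 40 and 41, at 372 and 291 CPM in LeuR 45 and 48, and at 213 and 221 CPM in ValR 31 and 36. In the other 15 female libraries it was at no more than 2.46 CPM, which was the level of Control 27. Each diet group therefore held 2 libraries with at least 703 counts of Gabra6 and several with at most 36, and the groups overlapped over nearly their whole range. The same 8 libraries were highest for Cbln3, from 206 to 973 CPM, while the other 15 had between 0.286 and 6.69 CPM. Over both sexes no library lay between 2.46 and 31.5 CPM of Gabra6.

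**Figure D3:**
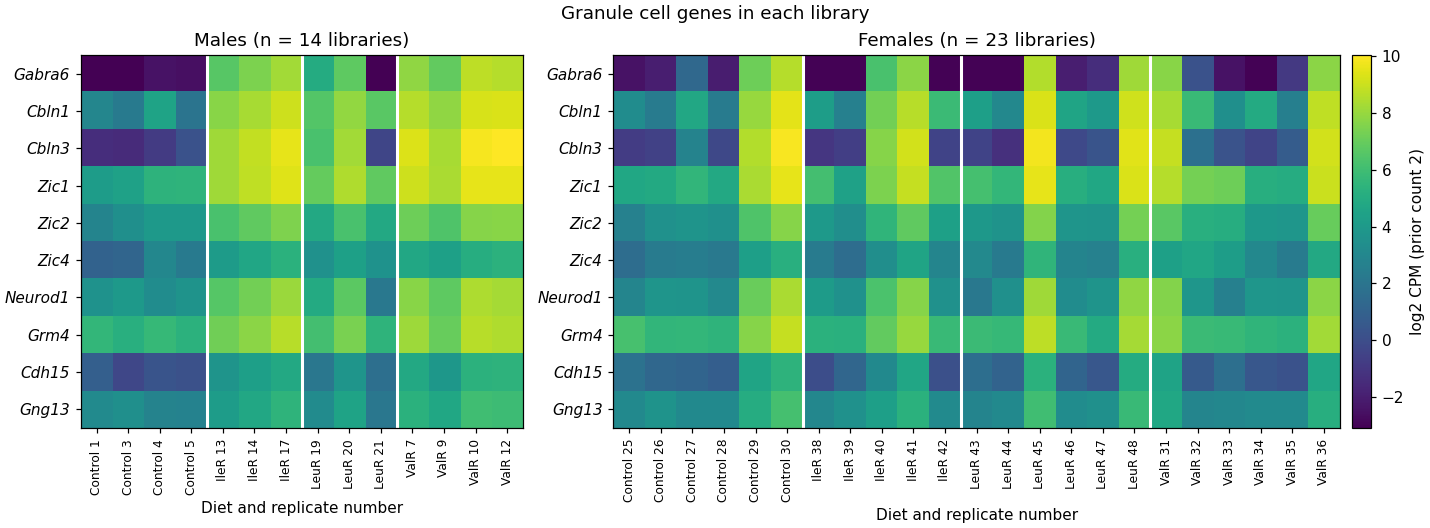
Log2 CPM (prior count of 2) of the 10 granule cell genes (rows) in the 14 male and 23 female libraries (columns, ordered by diet and replicate number, white lines between diets). In males all Control libraries and LeuR 21 are dark for Gabra6 and Cbln3, though LeuR 21 is not dark for Cbln1 and Zic1, and in females 2 libraries of each diet are bright.

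None of the 10 genes was a DEG in females on any restricted diet, and 0% of all 20344 genes tested were upregulated DEGs on the IleR, the LeuR or the ValR diet. The log2 fold changes ran from −0.72 to −0.27 for IleR (SE 0.71 to 2.20), from 0.05 to 0.54 for LeuR (SE 0.67 to 2.08) and from −0.59 to 0.52 for ValR (SE 0.68 to 2.08). The smallest edgeR adjusted p of a granule cell gene was 1 with IleR, 0.968 with LeuR and 1 with ValR, and 0 of the 10 had an unadjusted p under 0.05. DESeq2 and limma voom gave 0 as well. For Gabra6 the difference was −0.55 ± 2.17 (SE) with IleR, 0.34 ± 2.05 with LeuR and −0.27 ± 2.05 with ValR, so differences of several log2 units in either direction were not detectable with this spread. The lowest, median and highest summed level of the 10 genes were 113, 158 and 3996 CPM in Control, 105, 252 and 2332 in IleR, 119, 174 and 3729 in LeuR and 124, 320 and 2487 in ValR. In males the same sum was 103 to 160 CPM in Control, 1255 to 3233 in IleR, 314 to 1417 in LeuR and 1391 to 3881 in ValR.

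The difference between the sexes in the diet effect was tested in a single model of all 37 libraries. For ValR the effect was larger in males for each of the 10 genes, by 2.27 to 13.10 on the log2 scale (SE 0.97 to 4.58), of which the highest is the fit of Gabra6 and no bound, and all 10 had an unadjusted p under 0.05. None of the 10 passed the adjusted threshold, with edgeR adjusted p from 0.0585 (Cdh15) to 0.134 (Zic4). Of all 22465 genes, 0.677% passed with a higher log2 fold change in males than in females and 3.57% with a lower one. For IleR all 10 had an unadjusted p under 0.05 and 0 passed, with edgeR adjusted p from 0.127 to 0.218. Of all genes, 0% passed with a higher log2 fold change in males and 0.0979% with a lower one. For LeuR 2 had an unadjusted p under 0.05 (Gabra6 and Cbln3, named after their values were seen) and 0 passed, with edgeR adjusted p from 0.361 to 0.901. Of all genes, 0.00445% passed with a higher log2 fold change in males and 0% with a lower one. With limma voom 0 passed for any diet. The calls in males without calls in females are thus not shown to be a difference between the sexes at the adjusted threshold.

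The 10 genes did not keep the same proportions in every library. Where Gabra6 had at least 100 counts, a limit chosen after the values were seen and met by 17 libraries of both sexes, the Gabra6 level spanned 13.8-fold. Over these libraries the count of Cbln3 relative to Gabra6 stayed between 2.18 and 2.86 (median 2.60) and that of Neurod1 between 0.779 and 1.02 (median 0.925). The other genes held less closely to Gabra6, with the highest ratio exceeding the lowest by 1.76-fold for Cdh15, 1.91-fold for Zic2, 2.06-fold for Cbln1, 2.24-fold for Zic1, 2.4-fold for Gng13, 2.46-fold for Grm4 and 4.7-fold for Zic4. For 6 of these 7 genes the highest ratio was in male LeuR 19, the library with the lowest Gabra6 level of the 17, and the exception was Cdh15. Without LeuR 19 the span of Zic4 was 2.36-fold.

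In the other 20 libraries, the genes differed in the level that remained. Gabra6 was at 2.46 CPM or less, Cbln3 at 0.237 to 6.69 and Cdh15 at 0.71 to 3.48 CPM. Grm4 remained at 30.8 to 75.9 CPM, Zic1 at 17.8 to 159, Zic2 at 6.34 to 37.1, Neurod1 at 4.45 to 17.4 and Gng13 at 4.18 to 12.3 CPM. Cbln1 remained at 3.8 to 102 CPM, with its highest level in male LeuR 21, and Zic4 at 1.97 to 25.8 CPM, with its highest in female ValR 32. For a comparison between genes, levels were divided by exon length, and in ValR-fed males the mean was 155 CPM per kb for Cbln1, 153 for Cbln3, 117 for Gabra6, 105 for Zic1, 89.5 for Neurod1, 61.7 for Gng13, 56.1 for Zic2, 48.7 for Grm4, 9.73 for Cdh15 and 2.95 for Zic4.

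**Figure D4:**
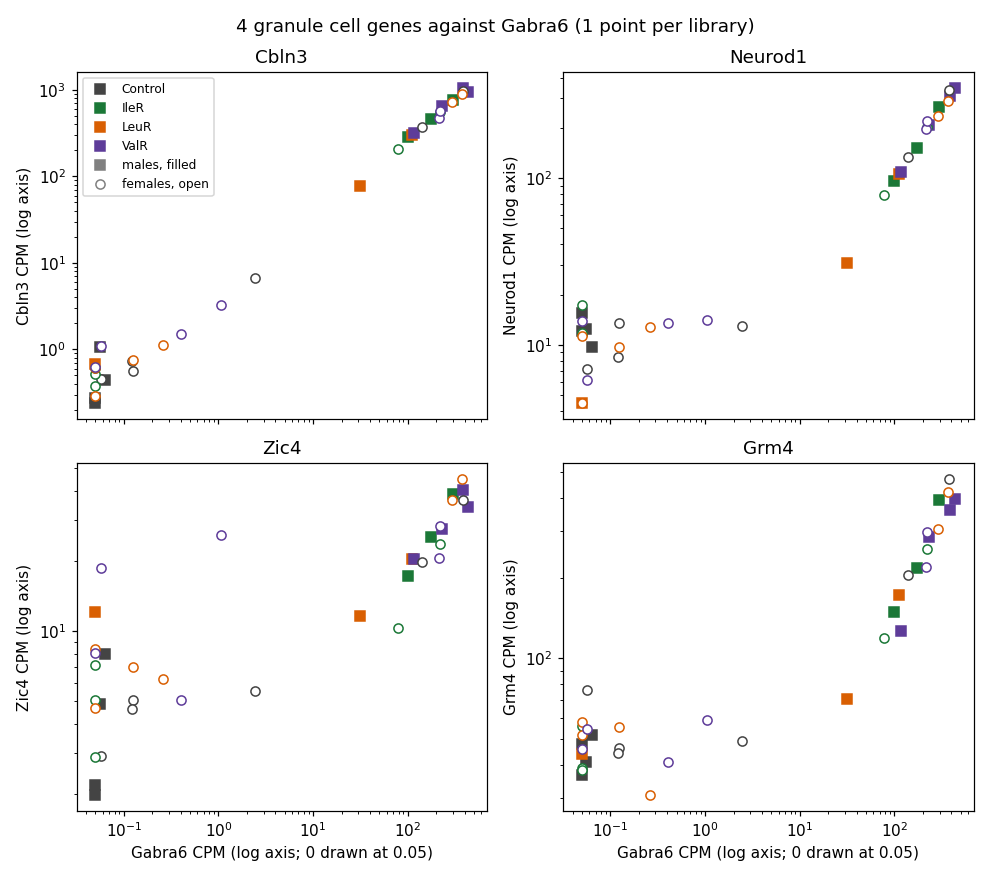
Level of Cbln3, Neurod1, Zic4 and Grm4 against that of Gabra6 in each of the 37 libraries, in CPM on log axes, with colour for diet, filled squares for males, open circles for females and 0 drawn at 0.05. Cbln3 and Neurod1 do not overlap between the 17 libraries with at least 100 counts of Gabra6 and the others, whereas Zic4 and Grm4 do, and in the libraries with little Gabra6 the lowest level is 0.237 CPM for Cbln3, 1.97 for Zic4, 4.45 for Neurod1 and 30.8 for Grm4.

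Relatives and partners of the cerebellins were counted as a list. Of the 9 genes in the list of cerebellin partners and relatives, 2 rose and 1 fell on the IleR diet, 1 rose and 1 fell on the LeuR diet, and 2 rose and 4 fell on the ValR diet, beside 6.63%, 3.81% and 11.1% of all genes that rose and 8.68%, 6.33% and 12.4% that fell. Among the relatives, Cbln2 and Cbln4, cerebellins of other brain regions, fell by 1.48 ± 0.33 (SE) and 1.24 ± 0.26 on the ValR diet (edgeR adjusted p of 0.00566 and 0.0037) and did not pass the test on the other diets.

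Of 5 genes of GABA-A receptor subunits that assemble with the Gabra6 product, 0 rose in males on any restricted diet, beside 6.63%, 3.81% and 11.1% of all genes, and 1, 2 and 1 fell on the IleR, LeuR and ValR diets, beside 8.68%, 6.33% and 12.4%. Gabrd, the delta subunit that pairs with the product of Gabra6 in extrasynaptic receptors, was at 14.3 to 79.1 CPM in Control males and at 37.6 to 101, 9.36 to 41.8 and 34.2 to 120 CPM on the IleR, LeuR and ValR diets, with log2 fold changes of 0.10 ± 0.62 (SE), −1.56 ± 0.66 and 0.53 ± 0.58, which did not pass the test. Zic5, another gene of the Zic family, rose on each diet, with log2 fold changes of 3.13 ± 0.48 (SE), 1.89 ± 0.48 and 3.45 ± 0.47 (edgeR adjusted p of 0.00152, 0.0271 and 0.000283).

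Of 12 further genes known from granule cells, 4 rose and 1 fell in IleR-fed males, 2 rose and 1 fell in LeuR-fed males, and 5 rose and 1 fell in ValR-fed males, with median log2 fold changes of 0.52, −0.30 and 0.81. Of all genes 6.63%, 3.81% and 11.1% rose and 8.68%, 6.33% and 12.4% fell, so the share of the list that fell was near that of all genes. The gene that fell in all was Slc17a7, the vesicular glutamate transporter shared with cortical neurons, with log2 fold changes of −2.08 ± 0.54 (SE), −2.55 ± 0.55 and −1.84 ± 0.48 (edgeR adjusted p of 0.0204, 0.0146 and 0.014). Adcy1, an adenylyl cyclase of granule cells and forebrain neurons, did not pass the test on any diet.

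Markers of other cell types moved beside the granule cell genes. Of 7 Purkinje cell genes, 6 rose in IleR-fed, 4 in LeuR-fed and 7 in ValR-fed males, and 0 fell, where 6.63%, 3.81% and 11.1% of all genes rose. Pcp2, a protein largely restricted to Purkinje and retinal bipolar cells and named after its values were seen, was at 0 to 0.573 CPM in Control males, so that it entered the test through the restricted groups, and was called on each diet (edgeR adjusted p of 0.00132, 0.0115 and 0.000283). Its calls therefore add no support to these levels, and it is counted among the Purkinje cell genes that rose on each diet. Relative to Gabra6, Pcp2 lay between 0.291 and 0.681 (median 0.506) in the 17 libraries with at least 100 counts of Gabra6. Of 8 brainstem genes 4, 5 and 6 rose on the IleR, LeuR and ValR diets and 0 fell, beside the same shares of all genes, and their summed level was 0.782 to 24.3 CPM in Control males, 74.4 to 258 in IleR, 2.88 to 605 in LeuR and 113 to 572 in ValR.

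Of 9 forebrain genes 8, 6 and 8 fell in males on the IleR, LeuR and ValR diets and 0 rose, beside 8.68%, 6.33% and 12.4% of all genes that were downregulated DEGs. Their summed level was 1553 to 6073 CPM in Control males, 315 to 522 in IleR, 179 to 1197 in LeuR and 225 to 320 in ValR. Camk2a, a kinase of forebrain excitatory neurons, had log2 fold changes of −3.73 ± 0.74 (SE), −2.62 ± 0.70 and −4.54 ± 0.68 (edgeR adjusted p of 0.00494, 0.0318 and 0.000466). The forebrain genes summed to the lowest Control level in Control 4, and without that library the same numbers of granule cell genes, 10, 7 and 10, were DEGs. LeuR 21, which had no Gabra6, also had few brainstem counts (2.88 CPM) and the highest forebrain level of the restricted males (1197 CPM). In females the libraries with at least 100 counts of Gabra6 had summed forebrain levels from 267 to 3346 CPM (median 1124). The other female libraries had 1856 to 4962 CPM (median 4020), so the ranges overlapped. Purkinje cell genes summed to 1747 to 6061 CPM in the former and 550 to 1177 CPM in the latter, without overlap. Brainstem genes summed to 13.8 to 156 CPM (median 34.0) in the former and 0.374 to 71.5 CPM (median 2.53) in the latter. Each female diet group held libraries of both kinds. Apart from the fit with the forebrain covariate, the part of these other regions in the result was not tested.

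The counts of the remaining lists stand beside 6.63%, 3.81% and 11.1% of all genes that rose and 8.68%, 6.33% and 12.4% that fell, and in lists this short 1 gene is not far from these shares. Of these lists, 2 of 4 Bergmann glia genes rose in IleR-fed males, 0 in LeuR-fed males and 3 in ValR-fed males. Of 3 markers of unipolar brush cells, Lmx1a and Otx2 did not pass on any diet, and Eomes, which is also in the olfactory bulb list, was called on each. Eomes was at 0 to 0.191 CPM in Control and entered the test only through the restricted groups, at 2.92 to 18.2 CPM in IleR, 1.43 to 10.7 in LeuR and 3.44 to 10.0 in ValR, so its calls add no support to these levels. Prox1, a dentate gyrus marker that granule cells of the cerebellum also express, rose on the IleR and ValR diets, and of the other dentate gyrus genes, C1ql2 and Dsp, none passed. Among 5 pan-neuronal genes 1 rose (Stmn2) and 1 fell (Syt1) on each diet. Of the oligodendrocyte (5 genes), endothelial (3), choroid plexus (6), meningeal (6), blood (5) and liver (5 tested of 6) lists, 0 genes were DEGs in males on any diet. Of 5 microglia genes 2, 0 and 4 fell, of 5 astrocyte genes 2, 1 and 2 rose and 1 fell on each diet, of 5 thalamus genes 0, 1 and 1 rose, of 5 olfactory bulb genes 1 (Eomes again) rose and 1 fell on each diet, and of the 3 muscle genes tested 2, 1 and 3 fell on the IleR, LeuR and ValR diets. In females 0 of the tested genes of any list were DEGs. Only 3 of the 8 brainstem genes, 2 of the 5 muscle genes and 3 of the 6 liver genes were tested there.

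**Figure D5:**
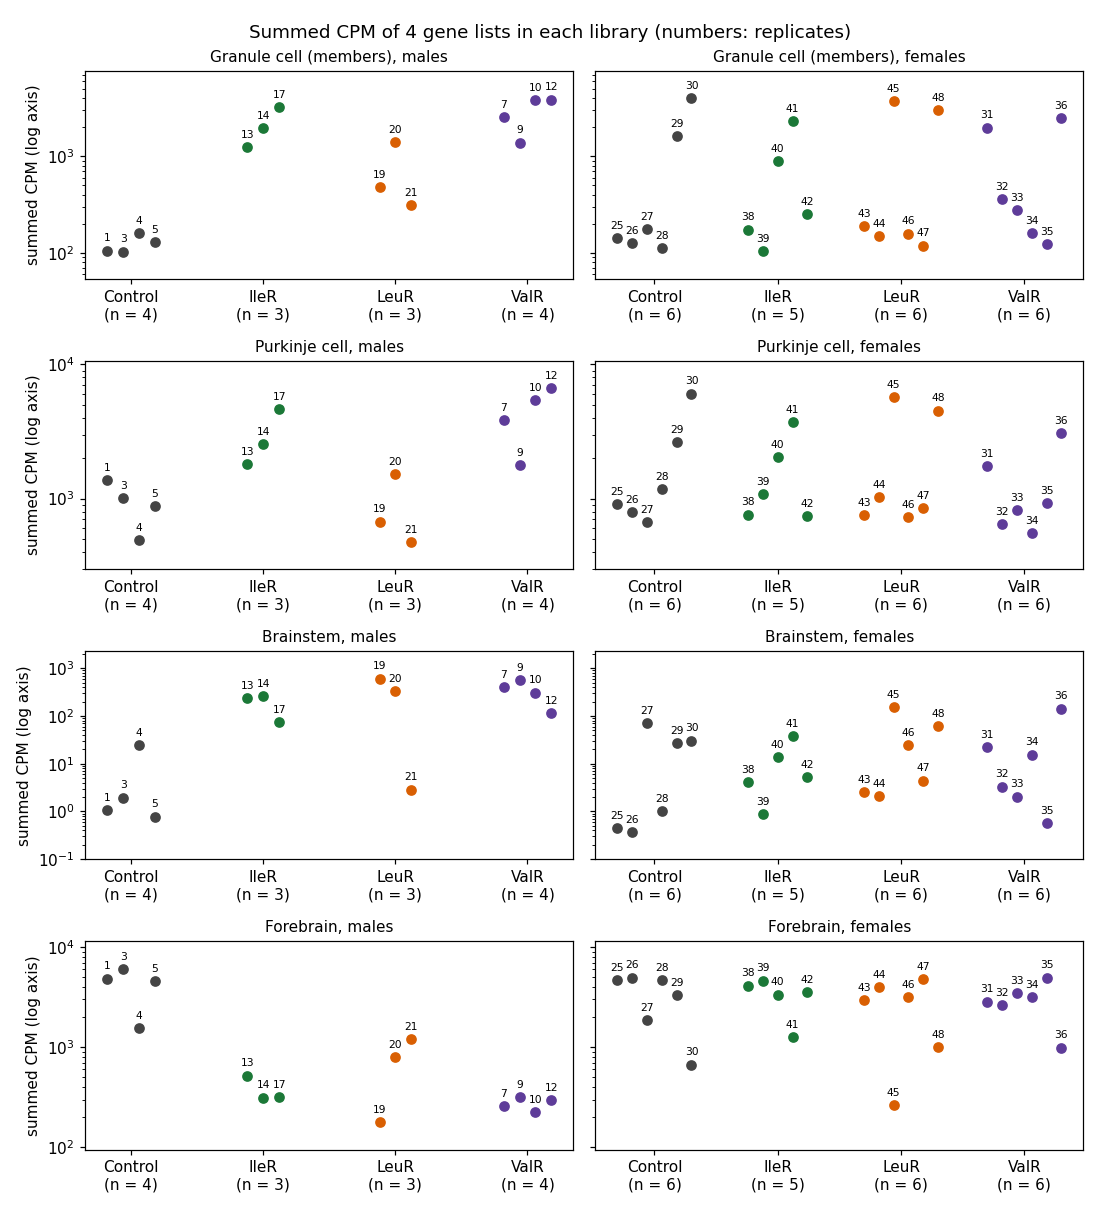
Summed CPM, on a log axis, of the 10 granule cell genes and of the Purkinje cell, brainstem and forebrain lists in each male (left) and female (right) library, with the replicate number above each point. In males the forebrain sum is at 1553 CPM or more in Control and at 1197 or less in the restricted groups, while granule cell sums lie at 160 or less and at 314 or more, and in females the diet groups overlap for each of the sums.

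The genes whose levels were most like those of the granule cell genes were sought in each sex apart, by Pearson's correlation of log2 CPM with the mean of the 10 standardised genes, given as a description because libraries of a group share a diet and the genes of a library share its tissue. Over 14 male libraries and 13986 genes the 5 most alike were Arhgef33, Atp2a3, Tmem266, Kank2 and Gm48362, with r from 0.991 to 0.992. Over 23 female libraries and 13878 genes they were Rgl3, Atp2a3, Khnyn, Fam107b and Afap1l2, with r from 0.985 to 0.992. Atp2a3, a calcium pump of the endoplasmic reticulum, was in both sets. Khnyn starts 555 bases from the start of Cbln3 on the opposite strand. Of the 10 genes themselves, Zic2 and Cdh15 were closest to the mean in males, with r of 0.986 and 0.987, and Gng13 was farthest, with 0.918. In females Zic2 and Cbln3 were closest, both with 0.98, and Zic4 was farthest, with 0.897.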

How the data were processed

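RNA of 3xTg mouse brains was sequenced from stranded libraries, which the labels describe as polyA mRNA and the extraction text as made with a total RNA kit. The authors deposited 1 table of expected counts per gene for each sex, made against GRCm38.p5 and not normalized. The aligner version and the strand setting of the counting are not given in the sources used here. The submitters' processing notes name R 3.4.3, edgeR and limma. Fractional values made up 3.69% to 4.93% of each library, and all values were rounded. The authors' tables of log2 fold changes and p-values hold their own comparisons and were not used, and per the study's methods outlying samples were removed after a principal component analysis.

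A gene was tested where any diet group had 1 count or more in each of its libraries. The 4 diets of a sex were fitted together with the quasi-likelihood test of edgeR 4.0.16 (R 4.3.3) after TMM normalization, with Benjamini-Hochberg adjustment over all genes tested and a threshold of 0.05, and the sex difference was an interaction contrast over all 37 libraries. SE is the log2 fold change over the square root of F. CPM are counts per 1000000 of the TMM-scaled library, and log2 CPM used a prior count of 2. No label ties libraries to litters or days, so p-values measure the spread between these samples. The code was tested on simulated counts. Alternatives were other size factors and filters, limma voom (limma 3.58.1), DESeq2 1.42.0, a fit of only the groups compared, a forebrain covariate and leaving out each library.

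The granule cell genes are all named. From the other lists, genes were named by role (a partner in a complex or a family member), as the 2 with the highest mean CPM of a list, or from lists of 5 genes or fewer, and genes named otherwise are marked. The members and lists were chosen with earlier results of these data known. Locations are from GENCODE M21 and promoter sequences from RefSeq (GRCm38.p6). Some genes of the lists are counted but not reported by name here.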

Additional observations from a re-analysis of the deposited data

How the results depend on the processing

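Depth limited Gabra6 in Control-fed males, where 1 count was the most in a library and only a bound on the fold could be given, and the Controls also had few counts of Cbln3 and Cdh15. No paired analysis was possible because each library has a label number of its own. Scaled by library totals alone, the median log2 fold change of all genes in males moved to 0.17 (IleR), 0.15 (LeuR) and 0.12 (ValR), and higher genes made up 62.5%, 53.2% and 59.5% of DEGs in place of 43.3%, 37.6% and 47.4%, while 10, 7 and 10 granule cell genes were DEGs as before. Those numbers were also the ones given by DESeq2 and by DESeq2's size factors in edgeR.

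In males, the forebrain covariate left 0, 0 and 0 of the granule cell genes as DEGs for IleR, LeuR and ValR, in a fit that called 0 of all genes. For LeuR, limma voom gave 4 and the fit of only LeuR and Control gave 0, where Gabra6 was not tested because the filter was applied to these groups alone. For ValR against LeuR, DESeq2 gave 6 and limma voom 4. Leaving out 1 male library at a time gave 9 to 10 DEGs for IleR, 4 to 9 for LeuR (4 without Control 3, 9 without LeuR 21), 10 for ValR and 0 to 6 for ValR against LeuR (0 without Control 1, 6 without LeuR 20). Apart from the forebrain covariate, the share of all genes called in these alternative fits is not given beside the counts. The log2 fold change of Gng13 with LeuR ranged from −0.26 without LeuR 20 to 0.98 without LeuR 21. The cause was not tested.

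In females none of the differences was a DEG under any alternative run, and many changed sign. With the forebrain covariate the log2 fold changes for IleR became 0.42 for Cbln1, 0.34 for Cbln3, 0.24 for Gabra6, 0.14 for Neurod1, 0.21 for Zic1 and 0.056 for Zic2. With that covariate those for LeuR became −1.42 for Cbln1, −3.71 for Cbln3, −1.48 for Cdh15, −3.09 for Gabra6, −0.67 for Gng13, −0.93 for Grm4, −1.39 for Neurod1, −0.90 for Zic1, −0.85 for Zic2 and −0.32 for Zic4, and those for ValR became 0.086 for Cbln1, 0.091 for Neurod1 and 0.34 for Zic2. With limma voom those for IleR became 0.75 for Cbln1, 0.060 for Cbln3, 0.33 for Neurod1, 0.35 for Zic1, 0.35 for Zic2 and 0.076 for Zic4, those for LeuR became −0.28 for Gabra6 and −0.027 for Grm4, and those for ValR became 0.65 for Cbln1, 0.31 for Cbln3, 0.13 for Neurod1 and 0.76 for Zic2. Library totals alone gave 0.0066 for Zic2 with ValR.

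Leaving out 1 female library at a time turned the sign of nearly every gene, with the highest value always without Control 30. For IleR, where the lowest value was without IleR 41, the ranges were −1.55 to 1.06 for Cbln1, −2.12 to 1.00 for Cbln3, −1.99 to 0.21 for Cdh15, −2.16 to 1.06 for Gabra6, −0.98 to 0.29 for Gng13, −1.24 to 0.27 for Grm4, −1.51 to 0.88 for Neurod1, −1.19 to 0.86 for Zic1, −1.26 to 0.71 for Zic2 and −0.96 to 0.38 for Zic4. For LeuR, lowest without LeuR 45, they were −0.50 to 1.76 for Cbln1, −0.65 to 1.81 for Cbln3, −0.65 to 0.99 for Cdh15, −0.58 to 1.95 for Gabra6, −0.35 to 0.89 for Gng13, −0.56 to 0.87 for Grm4, −0.64 to 1.42 for Neurod1, −0.31 to 1.5 for Zic1 and −0.38 to 1.41 for Zic2. For ValR, lowest without ValR 36, they were −1.02 to 1.23 for Cbln1, −1.24 to 1.20 for Cbln3, −1.07 to 0.48 for Cdh15, −1.02 to 1.34 for Gabra6, −0.995 to 0.15 for Gng13, −0.82 to 0.50 for Grm4, −0.81 to 1.13 for Neurod1, −0.42 to 1.19 for Zic1 and −0.45 to 1.11 for Zic2.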
